A study of Homo sapiens with 24 samples.

Results

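The natriuretic peptide system was followed through the RNA of 7 genes: the peptide genes NPPA, NPPB and NPPC, the receptor genes NPR1, NPR2 and NPR3, and CORIN, which encodes a protease that processes the precursors. They were chosen by name, by looking up the Ensembl identifiers of these symbols in the table of 62757 genes. All 7 were found, and all 7 were among the 17724 genes that passed the filter on low counts and were tested. The 24 bulk RNA-seq libraries came from cardiac cells grown as embryoid bodies from the human embryonic stem cell line HES3_NKX2-5GFP_NR2F2mCherry, which carries a GFP reporter at NKX2-5 and an mCherry reporter at NR2F2. Cells were carried through a Wnt-modulating protocol for at most 14 days. In the AM condition, read here as atrial, retinoic acid was given at day 4, and in the VM condition, read here as ventricular, it was not. In each condition the cells had been targeted with CRISPR-Cas9 at LHX2, ZNF503 or ZNF711, or at TRAC as the control, a gene of the T cell receptor. Every group, the TRAC control included, therefore carried both reporters and had been edited. That gave 8 groups of 3 libraries with replicates numbered 1 to 3. The labels do not say whether the replicates were separate cultures or how many clones were used, so p-values measure only the spread between these libraries.

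Natriuretic peptides are hormones that lower blood pressure and blood volume. Atrial natriuretic peptide, from NPPA, and B-type natriuretic peptide, from NPPB, are made by heart muscle cells and act through the receptor encoded by NPR1, which makes cyclic GMP. C-type natriuretic peptide, from NPPC, is made largely by endothelial and other non-muscle cells and acts through the receptor encoded by NPR2, a guanylyl cyclase as well. The receptor encoded by NPR3 has no cyclase domain and takes up all of these peptides for breakdown. In the developing heart NPPA and NPPB are expressed in atrial muscle and in the trabecular muscle of the ventricles. In the adult heart NPPA is mainly atrial, and NPPB responds strongly to stretch and strain of the muscle wall.

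NPPA and NPPB lie side by side on chromosome 1 and are both read from the minus strand. In GENCODE 29 on GRCh38, NPPA spans chr1:11845709-11848345 with 4 exon blocks and NPPB spans chr1:11857464-11858931 with 3. Between them lie 9118 bases and 0 annotated genes. NPR1 spans chr1:153678637-153693992, NPPC chr2:231921820-231926403, NPR2 chr9:35792154-35809732, NPR3 chr5:32689070-32791724 and CORIN chr4:47593998-47838106. NPPA shares 286 exonic bases with CLCN6, a chloride transporter gene on the opposite strand. CLCN6 had 8641 counts over the 24 libraries and NPPA had 1331. Whether the counting used strand is not given in the sources used here, so reads of these genes within the shared bases cannot be told apart. NPR2 shares 329 exonic bases with SPAG8 on the opposite strand, which had 230 counts against 4064 for NPR2.

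The promoters of the peptide gene NPPA, of NPR3 and of CORIN are shown because NPR3 was called with every target, because CORIN was called over the mean of the targets, and because NPPA is the textbook target of the cardiac factors NKX2-5, GATA4 and TBX5. Each is the 250 bases before a RefSeq start site (GRCh38.p14), written 5′ to 3′ on the strand of the gene. Capitals mark matches on either strand to AGGTCA (bound by nuclear receptors such as the retinoic acid receptors and COUP-TFs), AGATAA (bound by zinc finger proteins of the family of GATA4), AGGTGT (T-box factors), CATTCC (TEAD factors), AAGTG (NKX2-5) or the CArG box (SRF). The NPPA window is chr1:11847784-11848033 on the minus strand, within the NPPA span of GENCODE 29. The NPR3 window is chr5:32710399-32710648 on the plus strand, before the second of 2 RefSeq starts. It is the one shown because the bases after that start were found in a GENCODE transcript of NPR3 and those after the first start were not. The CORIN window is chr4:47838068-47838317 on the minus strand.
NPPA: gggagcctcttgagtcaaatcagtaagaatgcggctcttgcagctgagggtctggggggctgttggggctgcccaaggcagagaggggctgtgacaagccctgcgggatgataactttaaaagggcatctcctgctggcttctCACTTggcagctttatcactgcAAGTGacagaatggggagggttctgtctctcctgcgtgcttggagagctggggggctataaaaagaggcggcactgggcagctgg
NPR3: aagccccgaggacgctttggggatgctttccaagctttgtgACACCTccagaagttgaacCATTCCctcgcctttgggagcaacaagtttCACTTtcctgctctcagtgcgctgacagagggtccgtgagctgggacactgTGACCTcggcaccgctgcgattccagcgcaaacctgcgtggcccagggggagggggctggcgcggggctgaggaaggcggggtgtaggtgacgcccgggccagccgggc
CORIN: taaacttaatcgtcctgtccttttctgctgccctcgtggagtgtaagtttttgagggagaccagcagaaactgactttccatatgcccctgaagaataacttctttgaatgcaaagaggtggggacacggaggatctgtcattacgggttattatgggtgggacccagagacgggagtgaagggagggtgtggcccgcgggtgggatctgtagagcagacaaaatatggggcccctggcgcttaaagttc

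The NPPA window held 2 matches to AAGTG, the nearer one from base -85 to -81 before the start. The NPR3 window held 4 matches: AGGTGT from -209 to -204, CATTCC from -190 to -185, AAGTG from -160 to -156 and AGGTCA from -109 to -104. The window before the first NPR3 start, chr5:32690622-32690871, held 1 match, AAGTG from -73 to -69. The CORIN window held none of the motifs. Of 35116 promoter windows of the same length, 12.1% held AGGTCA, 9.6% AGGTGT, 11.9% CATTCC, 9.2% AGATAA, 37.6% AAGTG and 1.2% the CArG box. A match of this kind is a description of letters and not of binding. Only these exact patterns were searched, so a window without a match can still hold a site for the factor. The NPPA window, for one, holds TGATAA, which differs from AGATAA in its first base and was not searched. NPPB had no entry.

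Total counts ran from 2899786 to 7438010 per library, with a median of 5113567. No targeted gene was called lower in its own libraries, so a loss of RNA did not check the labels. LHX2 had 0 to 34 counts in every library, ZNF711 was at -0.35 in AM ZNF711 and -0.37 in VM ZNF711 against TRAC on the log2 scale (standard errors 0.19), and ZNF503 stood at 1.40 and 1.42 in the libraries labelled ZNF503 (standard errors 0.27 and 0.30). None of these passed the test described below (lowest edgeR adjusted p 0.295). After scaling to library size, each library labelled ZNF503 had more ZNF503 RNA than every other library of its condition. ZNF503 RNA therefore set these libraries apart but went against a loss of the transcript, and ZNF503 names a label below. Heart muscle genes were counted throughout: the summed level of 12 cardiomyocyte markers was 10790 to 18370 counts scaled to a common library size (CPM, by the trimmed mean of M values) in AM and 8163 to 33290 in VM. Markers of hepatic endoderm were counted too, summing to 268 to 2542 CPM in AM and 2038 to 33020 in VM. VM replicate 3 of every target and all 3 VM ZNF711 libraries stood apart from the other VM libraries. In VM replicate 3 the cardiomyocyte sum had a median of 11380 CPM against 25900 in replicates 1 and 2, and the hepatic sum a median of 26850 against 4174. In bulk RNA, fewer cells of a type and less RNA per cell cannot be told apart.

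**Figure D1:**
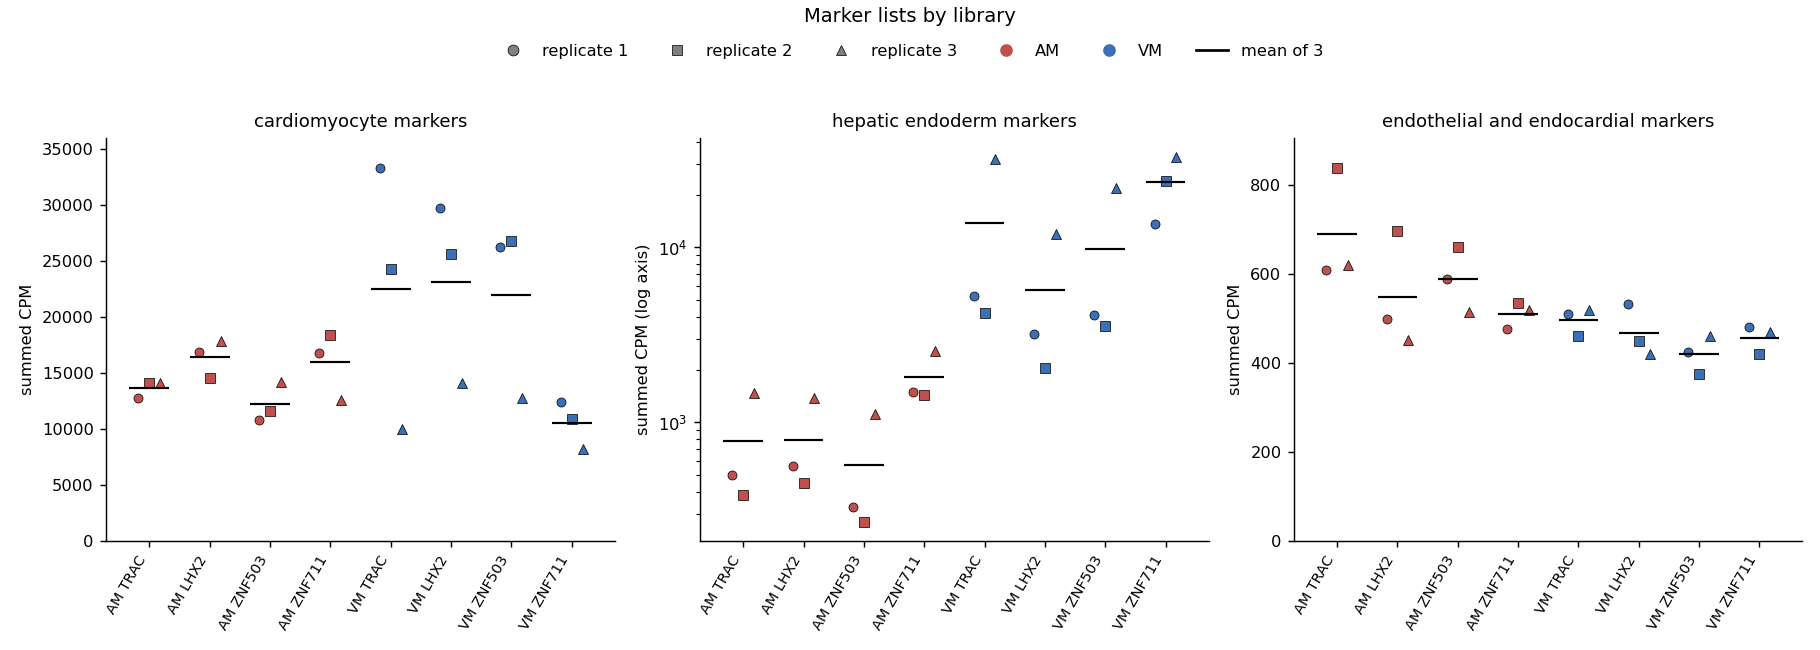
Summed CPM (vertical axes) of the cardiomyocyte, hepatic endoderm (log axis) and endothelial markers in each of the 24 libraries by group (horizontal axis), with the mean of 3 as a line. VM replicate 3 (triangles) and VM ZNF711 lie low for cardiomyocyte markers and high for hepatic markers.

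Per kilobase of exon, NPR2 and CORIN had the highest medians of the members in AM, and CORIN, NPPB and NPPA the highest in VM. In the 12 AM libraries the median was 10.5 CPM per kilobase for NPR2, 8.69 for CORIN, 5.59 for NPR3, 4.04 for NPPA, 2.60 for NPR1, 1.67 for NPPB and 0.810 for NPPC. In the 12 VM libraries the order was CORIN at 12.9, NPPB at 10.5, NPPA at 10.1, NPR2 at 6.67, NPR3 at 2.50, NPR1 at 1.91 and NPPC at 0.702. The VM libraries of NPPB spanned 2.97 to 64.4 CPM per kilobase and overlapped those of NPPA, at 5.31 to 24.5. The VM place of NPPB rested on replicate 3: its median was 49.99 CPM per kilobase in replicate 3 and 5.85 in replicates 1 and 2, under CORIN, NPR2 and NPPA. Cardiac troponin T, TNNT2, had medians of 39.1 in AM and 40.3 in VM on the same scale.

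**Figure D2:**
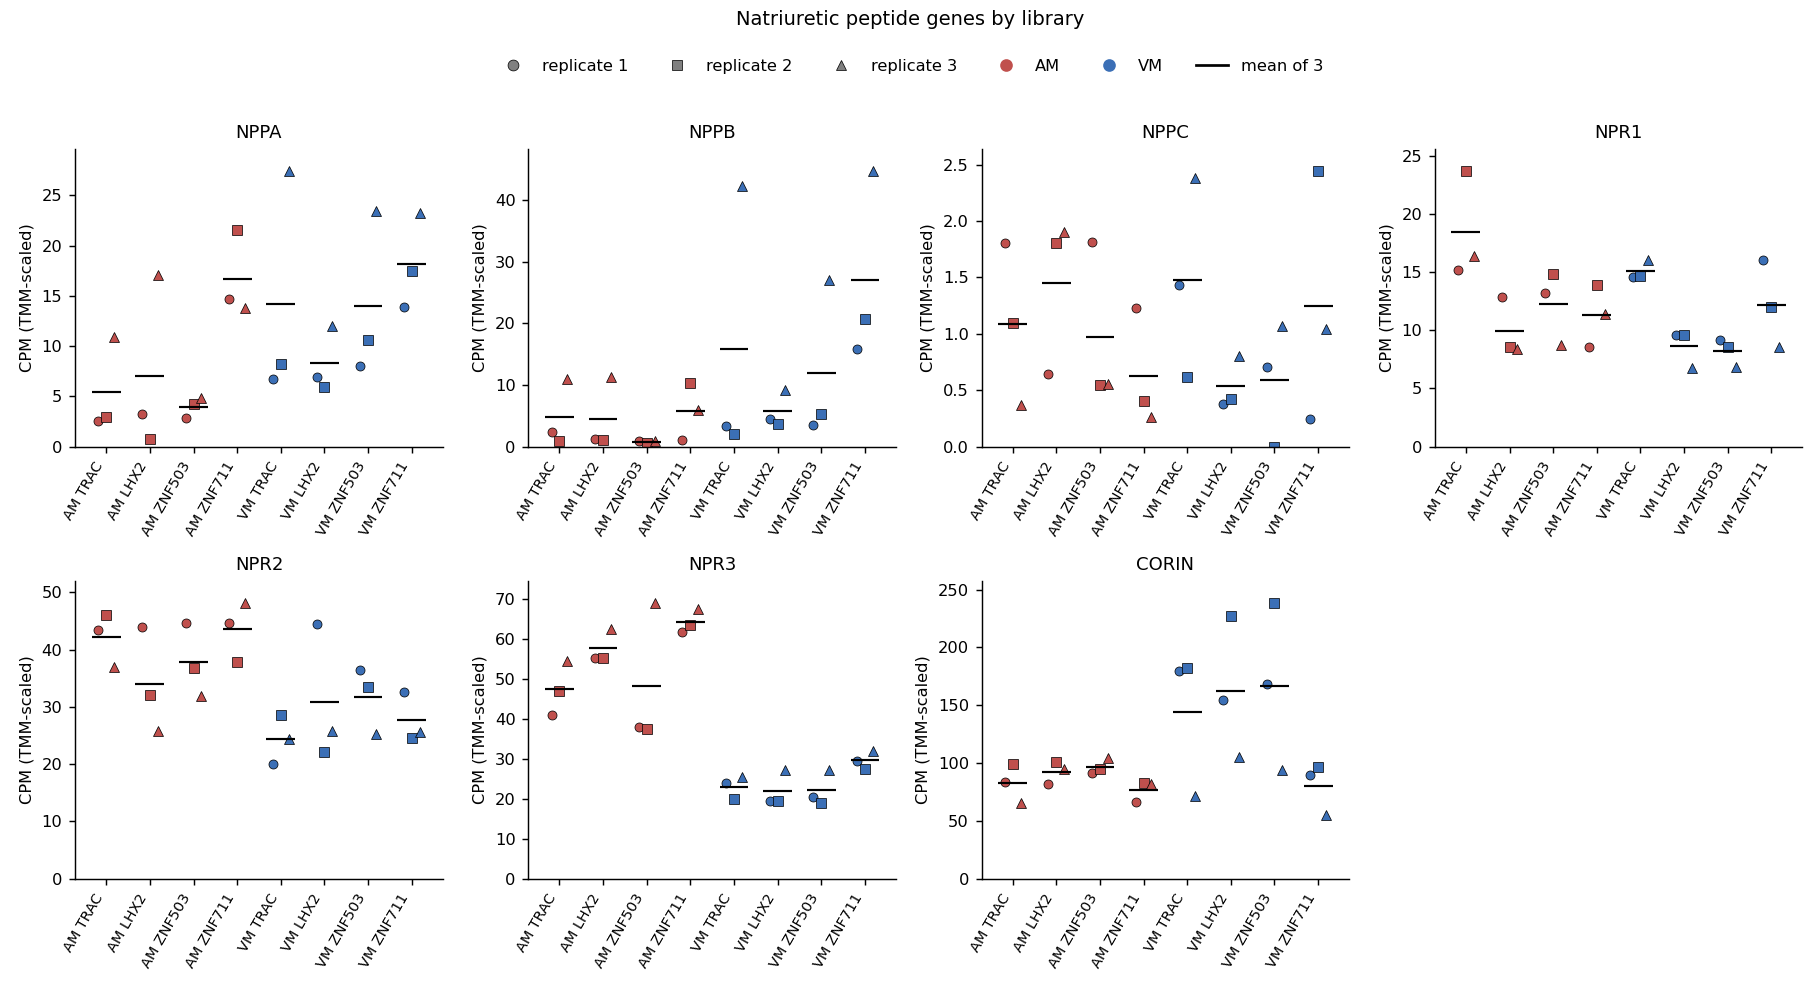
CPM (vertical axes, from 0) of the 7 genes in each library by group, with replicates as symbols and the mean of 3 as a line. The 12 AM libraries of NPR3 lie at 37.5 CPM or more and the 12 VM libraries at 32.0 CPM or less. NPPA and NPPB overlap between the conditions, and within each VM target replicate 3 is the highest library for both.

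The first question was which parts of the system differed between the atrial and the ventricular condition. NPR3, the clearance receptor, was higher in AM with every target. NPR2, the receptor for C-type peptide, was called higher by a smaller amount in TRAC and over the mean of the 4 targets alone. NPPB and CORIN were lower in AM over the mean of the 4 targets. The NPR2 and NPPB calls over the mean held with the replicate number as a block. They were lost where the difference was read at replicate 1, through a separate block in each condition, as given below. The NPPB call was also lost without VM TRAC replicate 3. NPPA and NPR1 were not called over the mean, nor was NPPC. The NPPA result depended on the fit, and with the replicate number as a block NPPA was called lower in AM, as given below. The comparison used edgeR's quasi-likelihood test over all 17724 genes, with 1 mean per group and Benjamini-Hochberg adjusted p-values, and a gene was called below 0.05. Values are log2 fold changes of AM minus VM with standard errors.

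Members called numbered 2 of 7 in TRAC, where 11.3% of all tested genes were called, and 1 of 7 each in LHX2 (8.56% of tested genes), ZNF503 (8.86%) and ZNF711 (13.2%). Over the mean of the 4 targets, 4 of 7 were called, 2 higher and 2 lower in AM, where 34.5% of tested genes were called. The median of the 7 values there was 0.19, beside -0.01 over all tested genes. Same-numbered libraries deviated together, so a fit with the replicate number as a block was read too. It is given where it changed a call, and it called 19.4% of tested genes in TRAC, 15.7% in LHX2, 14.9% in ZNF503, 23.4% in ZNF711 and 41.7% over the mean. A fit with a separate replicate block in each condition was read as well. Its AM minus VM values are fitted differences at replicate 1, the baseline of the blocks, and not over all replicates. Its comparisons with TRAC and its interactions do not depend on that baseline.

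**Figure D3:**
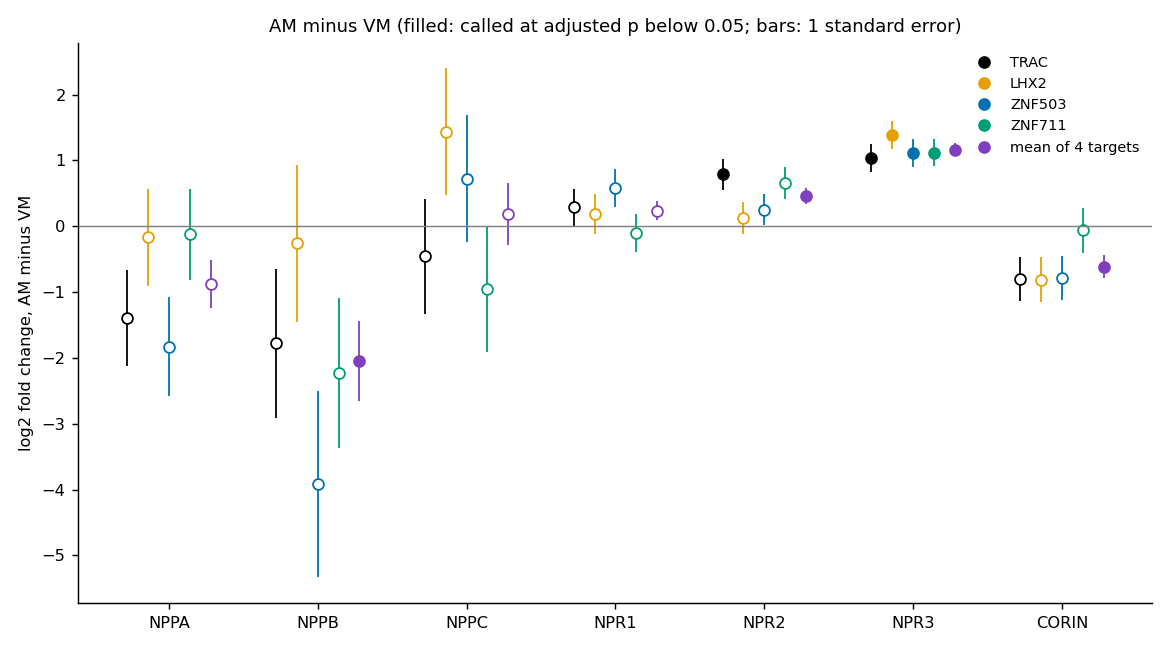
Log2 fold change, AM minus VM (vertical axis), of each gene with each target and over the mean of 4 targets, with bars of 1 standard error and filled points where the edgeR adjusted p was below 0.05. NPR3 is filled throughout, between 1.04 and 1.39, and NPPB has the longest bars.

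Among the peptide genes, NPPB showed the largest difference and the widest spread. NPPB in AM was 2.35, 0.937 and 10.9 CPM in TRAC, 1.29, 1.03 and 11.2 in LHX2, 0.824, 0.549 and 0.929 in ZNF503, with 1.02, 10.3 and 5.99 in ZNF711 for replicates 1, 2 and 3. NPPB in VM was 3.28, 2.06 and 42.3 CPM in TRAC, 4.51, 3.61 and 9.21 in LHX2, 3.52, 5.31 and 27.1 in ZNF503, with 15.8, 20.7 and 44.7 in ZNF711. The groups did not overlap in ZNF503 and ZNF711 and overlapped in TRAC and LHX2, and VM replicate 3 was the highest VM library with each target. NPPB was lower in AM in 11 of the 12 pairs with the same target and number. Per target the values were -1.78 (SE 1.14) in TRAC, -0.26 (SE 1.196) in LHX2, -3.92 (SE 1.42) in ZNF503 and -2.23 (SE 1.15) in ZNF711, with edgeR adjusted p from 0.105 to 0.942. Over the mean NPPB fell by 2.05 (SE 0.62, edgeR adjusted p 0.0148). This call was lost without VM TRAC replicate 3 (-1.39, edgeR adjusted p 0.0594), and the TRAC value then turned to 0.81. The LHX2 value turned positive without AM LHX2 replicate 1, AM LHX2 replicate 2 or VM LHX2 replicate 3, up to 0.25. With the replicate block NPPB was called in ZNF503 (-3.61, edgeR adjusted p 0.0172) and ZNF711 (-2.06, edgeR adjusted p 0.0475). With a separate replicate block in each condition the values were those at replicate 1. There NPPB was called in neither target (-3.83, edgeR adjusted p 0.0777, and -2.45, edgeR adjusted p 0.156), nor over the mean (-2.19, edgeR adjusted p 0.101).

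NPPA, the marker of atrial muscle in the adult, was not called higher in AM in any comparison, and its values were negative. NPPA in AM was 2.53, 2.97 and 10.9 CPM in TRAC, 3.21, 0.776 and 17.1 in LHX2, 2.80, 4.21 and 4.83 in ZNF503, with 14.7, 21.5 and 13.8 in ZNF711. NPPA in VM was 6.77, 8.25 and 27.4 CPM in TRAC, 6.96, 5.95 and 12 in LHX2, 7.98, 10.6 and 23.4 in ZNF503, with 13.9, 17.5 and 23.2 in ZNF711. AM lay wholly below VM in ZNF503, and the conditions overlapped with the other targets. The values were -1.39 (SE 0.73) in TRAC, -0.17 (SE 0.74) in LHX2, -1.83 (SE 0.75) in ZNF503 and -0.12 (SE 0.69) in ZNF711, with edgeR adjusted p from 0.161 to 0.939. Over the mean the value was -0.88 (SE 0.36, edgeR adjusted p 0.0682), and it was lower in AM in 9 of 12 pairs. The replicate block called NPPA over the mean (-0.88, edgeR adjusted p 0.00545) and in ZNF503 (-1.72, edgeR adjusted p 0.0236). A separate block in each condition, which reads the difference at replicate 1, called neither (-0.92, edgeR adjusted p 0.226, and -1.77, edgeR adjusted p 0.125). Without AM TRAC replicate 3 the mean was -1.11 (edgeR adjusted p 0.0202), without AM LHX2 replicate 3 it was -1.36 (edgeR adjusted p 0.00203), and without VM TRAC replicate 3 it was -0.63 (edgeR adjusted p 0.176). The TRAC value ran from -2.36 without AM TRAC replicate 3 to -0.46 without VM TRAC replicate 3. The LHX2 value turned positive without AM LHX2 replicate 1, AM LHX2 replicate 2 or VM LHX2 replicate 3, up to 0.35, and the ZNF711 value turned to 0.10 without VM ZNF711 replicate 3. CLCN6, which overlaps NPPA, fell by 0.42 over the mean (SE 0.11, edgeR adjusted p 0.00322), with 42.3 to 82.0 CPM in AM and 66.6 to 105.1 in VM. Its part in the NPPA value was not tested.

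NPPC was near the limit of detection, with 0 to 16 counts per library and at most 2.45 CPM. Detection is set here at 3 counts, which equalled 0.447 to 0.963 CPM across libraries, and it covers counting error only. The NPPC value over the mean was 0.19 (SE 0.47, edgeR adjusted p 0.801). No difference between the conditions was called, and the size of difference that could be detected at this depth was not computed.

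CORIN, the protease that cuts pro-atrial natriuretic peptide on the surface of heart muscle cells, was the most highly counted member. CORIN in AM was 83.9, 99.1 and 65.1 CPM in TRAC, 81.6, 100.6 and 95.1 in LHX2, 91.4, 94.5 and 104.2 in ZNF503, with 66.5, 83.2 and 81.7 in ZNF711. CORIN in VM was 179.9, 182.1 and 71.7 CPM in TRAC, 154.7, 227.0 and 105.1 in LHX2, 168.0, 238.4 and 93.9 in ZNF503, with 89.5, 96.9 and 55.2 in ZNF711. Replicates 1 and 2 of VM TRAC, VM LHX2 and VM ZNF503 stood above every AM library, whereas VM replicate 3 and all of VM ZNF711 lay within or near the AM range. Over the mean CORIN fell by 0.62 (SE 0.17, edgeR adjusted p 0.00801), in 10 of 12 pairs. Per target the values were -0.80, -0.81, -0.79 and -0.06 (SE 0.34 each) in TRAC, LHX2, ZNF503 and ZNF711, none of them called (edgeR adjusted p from 0.148 to 0.938). The ZNF711 value turned positive without AM ZNF711 replicate 1, VM ZNF711 replicate 1 or VM ZNF711 replicate 2, up to 0.10.

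The CORIN values depended on replicate 3. Without replicate 3 of every group, a setting chosen after seeing the data, CORIN was called in TRAC (-0.98, edgeR adjusted p 0.00317), LHX2 (-1.06, edgeR adjusted p 0.00192) and ZNF503 (-1.12, edgeR adjusted p 0.000852). That setting called 8.72%, 7.47% and 7.99% of tested genes in those comparisons and 25.0% over the mean, where NPPA was called as well (-1.10, edgeR adjusted p 0.00144). With a separate replicate block in each condition the 3 CORIN values, fitted at replicate 1, were -0.997, -1.04 and -0.98 (highest edgeR adjusted p 1.33e-05). They are not averages over the replicates, so replicate 3 does not enter them as it does the main values. There 14.7%, 12.2% and 12.5% of tested genes were called. Over the mean that fit called 21.8% of tested genes. Without VM TRAC replicate 3 alone, CORIN in TRAC was -1.12 (edgeR adjusted p 0.0242).

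NPR3 separated the conditions completely. NPR3 in AM was 41.0, 47.0 and 54.3 CPM in TRAC, 55.2, 55.1 and 62.4 in LHX2, 37.9, 37.5 and 68.9 in ZNF503, with 61.8, 63.4 and 67.4 in ZNF711. NPR3 in VM was 24, 19.8 and 25.3 CPM in TRAC, 19.4, 19.3 and 27.2 in LHX2, 20.4, 19.0 and 27.1 in ZNF503, with 29.4, 27.5 and 32.0 in ZNF711. All 12 AM libraries stood above all 12 VM libraries, a pattern shown by 2.69% of tested genes. The values were 1.04 (SE 0.21, edgeR adjusted p 0.00138) in TRAC, 1.39 (SE 0.21, edgeR adjusted p 7.83e-05) in LHX2, 1.12 (SE 0.21, edgeR adjusted p 0.000791) in ZNF503 and 1.12 (SE 0.21, edgeR adjusted p 0.000702) in ZNF711. Over the mean NPR3 rose by 1.17 (SE 0.11, edgeR adjusted p 2.60e-09), and it was higher in AM in 12 of 12 pairs. Replicate 3 held the highest NPR3 value of its group in all 8 groups. Endothelial markers, a source of natriuretic receptors in the heart, had 5 of 10 called higher and 1 lower in AM over the mean, where 34.5% of tested genes were called. Their summed level, 451 to 837 CPM in AM and 376 to 532 in VM, overlapped. By target, TRAC had 4 endothelial markers called higher and 1 lower (11.3% of all tested genes called). LHX2 had 1 higher and 1 lower (8.56%), and ZNF503 had 4 higher and 0 lower (8.86%). ZNF711 had 2 higher and 1 lower (13.2%), with a median over the list of 0.03 beside 1.12 for NPR3. Fibroblast markers had 4 of 10 called higher and none lower, and smooth muscle markers 4 higher and 3 lower of 8. The part of fibroblasts and smooth muscle in the NPR3 value was not tested.

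NPR2 was higher in AM with TRAC and over the mean of the targets. NPR2 in AM was 43.4, 46.1 and 37.0 CPM in TRAC, 44.0, 32.1 and 25.9 in LHX2, 44.6, 36.8 and 31.9 in ZNF503, with 44.6, 37.9 and 48.1 in ZNF711. NPR2 in VM was 20.1, 28.7 and 24.4 CPM in TRAC, 44.6, 22.1 and 25.8 in LHX2, 36.4, 33.5 and 25.4 in ZNF503, with 32.6, 24.6 and 25.7 in ZNF711. The conditions did not overlap in TRAC and ZNF711. The values were 0.79 (SE 0.24, edgeR adjusted p 0.0300) in TRAC, 0.13 (SE 0.24) in LHX2, 0.25 (SE 0.24) in ZNF503 and 0.66 (SE 0.24, edgeR adjusted p 0.0682) in ZNF711, and the replicate block called the last (0.67, edgeR adjusted p 0.0127). The TRAC call was lost when only its 2 groups were fitted (0.78, edgeR adjusted p 0.0501). Over the mean NPR2 rose by 0.46 (SE 0.12, edgeR adjusted p 0.00369), in 11 of 12 pairs. At replicate 1, read through a separate replicate block in each condition, NPR2 was called neither over the mean (0.42, edgeR adjusted p 0.0608) nor in ZNF711 (0.63, edgeR adjusted p 0.0583).

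The TRAC call of NPR2 was also lost without AM TRAC replicate 1 (0.77, edgeR adjusted p 0.0791), AM TRAC replicate 2 (0.72, edgeR adjusted p 0.114), VM TRAC replicate 1 (0.67, edgeR adjusted p 0.111) or VM TRAC replicate 3 (0.79, edgeR adjusted p 0.0697), and without replicate 3 of every group (0.88, edgeR adjusted p 0.0643). NPR1, the receptor of the heart muscle peptides, had 8.37 to 23.7 CPM in AM and 6.80 to 16.1 in VM, which overlapped. Its value over the mean was 0.24 (SE 0.15, edgeR adjusted p 0.229), and it was higher in AM in 10 of 12 pairs.

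To set the members beside markers of heart muscle and endothelium, 8 relative values set a member against its partner or against the mean log2 CPM of a marker list in the same library. Their AM minus VM differences were tested with an exact 2-sided permutation test within targets, which has 160000 assignments, and adjusted over the 8. The test exchanges libraries freely within each target. Same-numbered libraries of different targets deviated together, which its p-values do not take into account. NPR3 relative to the cardiomyocyte markers was -2.27 ± 0.20 in AM and -3.93 ± 0.85 in VM (SD, n = 12 each), a difference of 1.66 (exact permutation adjusted p 0.0001). NPR3 relative to the endothelial markers was 0.48 ± 0.47 in AM and -0.35 ± 0.29 in VM, a difference of 0.84 (exact permutation adjusted p 0.0001). Both differences had the same sign in 12 of 12 pairs. NPR2 relative to the cardiomyocyte markers differed by 0.98 (exact permutation adjusted p 0.00103), in 11 of 12 pairs. NPR2 alone differed by 0.46 over the mean of the 4 targets. The median of the cardiomyocyte list was -0.61 there, which enters every difference taken against it. By target, NPR3 against this list differed by 1.62 in TRAC, 2.27 in LHX2, 2.13 in ZNF503 and 0.61 in ZNF711. For NPR2 the values were 1.38, 1.05, 1.32 and 0.16 in that order. The by-target values were not tested.

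CORIN relative to the cardiomyocyte markers was -1.57 ± 0.46 in AM and -1.54 ± 0.16 in VM (SD, n = 12 each). The difference was -0.03 (exact permutation adjusted p 0.824), and VM replicate 3 and VM ZNF711, low in CORIN CPM, lay with the other VM libraries on this scale. By target the CORIN difference was -0.11 in TRAC, 0.14 in LHX2, 0.38 in ZNF503 and -0.52 in ZNF711, which was not tested. With the median of the list in place of its mean the CORIN difference was -0.30 (exact permutation adjusted p 0.0837). NPPB on the same scale differed by -1.32 (exact permutation adjusted p 0.0807) and NPPA by -0.50 (exact permutation adjusted p 0.284), both in 8 of 12 pairs. Pairing the libraries by number, the NPPB value had an exact permutation adjusted p of 0.0488. By target the NPR1 difference on that scale was 0.85 in TRAC, 1.06 in LHX2, 1.60 in ZNF503 and -0.59 in ZNF711, which was not tested. NPR1 alone was 0.24 over the mean and not called. Over the 4 targets NPR1 on that scale differed by 0.73 (exact permutation adjusted p 0.0293), in 8 of 12 pairs. This NPR1 result was lost without replicate 1 (0.70, exact permutation adjusted p 0.0803) or replicate 2 (0.41, exact permutation adjusted p 0.296), with pairing by number (exact permutation adjusted p 0.0762) and with the median of the list in place of its mean (0.46, exact permutation adjusted p 0.119). NPPA minus NPPB, the balance of the neighbouring peptide genes, was 1.17 ± 1.04 in AM and 0.35 ± 0.80 in VM, a difference of 0.82 that was not called (exact permutation adjusted p 0.0696). By target this difference was -0.24 in TRAC, -0.07 in LHX2, 1.27 in ZNF503 and 2.32 in ZNF711, which was not tested.

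**Figure D4:**
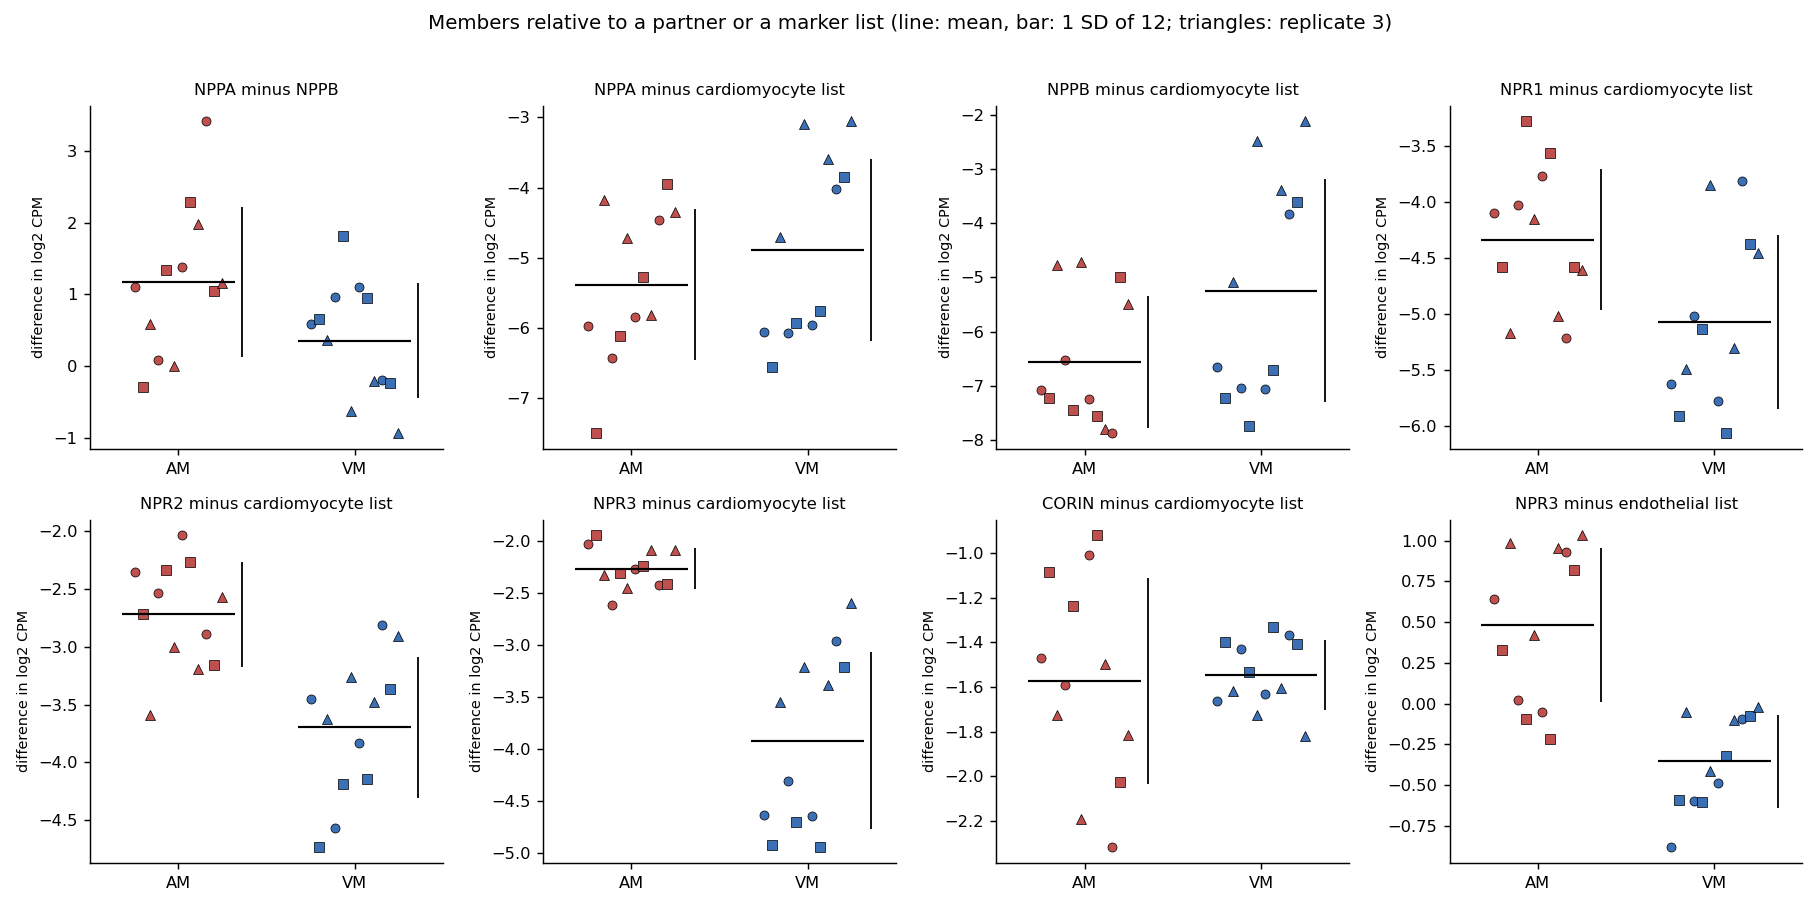
Difference in log2 CPM (vertical axes) between a member and its partner or a marker list mean in each library, with the mean as a line, 1 SD of 12 as a bar, and replicate 3 as triangles. NPR3 lies higher in AM against both lists, and CORIN against cardiomyocyte markers has the same mean within 0.03 in both conditions.

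Within VM, NPPA and NPPB were high in libraries in which cardiomyocyte markers were low and hepatic markers were high. In VM, replicate 3 had a median of 34.7 CPM for NPPB (9.21 to 44.7, n = 4) against 4.06 in replicates 1 and 2 (2.06 to 20.7, n = 8). NPPA in VM had a median of 23.3 CPM in replicate 3 (12 to 27.4) against 8.11 (5.95 to 17.5). CORIN went the other way, with a median of 82.8 CPM in VM replicate 3 against 174.0. In AM, NPPB had a median of 8.46 CPM in replicate 3 (0.929 to 11.2) against 1.03 in replicates 1 and 2 (0.549 to 10.3), which overlapped. AM ZNF503 replicate 3 was at 0.929 CPM for NPPB, and in AM ZNF711 replicate 2 stood above replicate 3. CORIN in AM had a median of 88.4 CPM in replicate 3 against 87.7. These are descriptions with no test, and the part of the hepatic cells or of the low muscle share in them was not tested.

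The next question was whether targeting LHX2, ZNF503 or ZNF711 changed the system in either condition. None of the 7 genes was called by edgeR in any of the 6 comparisons with TRAC. The share of tested genes called was 0% in AM LHX2, 0% in AM ZNF503, 0% in AM ZNF711, 0% in VM LHX2, 0% in VM ZNF503 and 0.0169% in VM ZNF711. At an unadjusted p under 0.05, 1372, 309, 618, 463, 274 and 1666 of the 17724 genes passed in that order. DESeq2 called none of the 7 either, and 33, 1, 0, 1, 1 and 76 of all tested genes. The 3 comparisons of a condition share the same TRAC libraries, so a high or low TRAC library moves all 3 values.

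NPR1 had a negative value in all 6. NPR1 in AM was 15.2, 23.7 and 16.4 CPM in TRAC, 12.9, 8.53 and 8.37 in LHX2, 13.2, 14.8 and 8.73 in ZNF503, with 8.59, 13.9 and 11.5 in ZNF711. NPR1 in VM was 14.6, 14.7 and 16.1 CPM in TRAC, 9.59, 9.56 and 6.80 in LHX2, 9.15, 8.58 and 6.88 in ZNF503, with 16.1, 12 and 8.57 in ZNF711. All 3 libraries lay below all 3 TRAC libraries in 5 of the comparisons, VM ZNF711 being the exception. The log2 fold changes against TRAC were -0.91 (SE 0.29), -0.59 (SE 0.28) and -0.71 (SE 0.29) for LHX2, ZNF503 and ZNF711 in AM, and -0.80 (SE 0.29), -0.88 (SE 0.29) and -0.31 (SE 0.29) in VM, with a lowest edgeR adjusted p of 0.414. Groups that do not overlap in either direction were found for 19.0% of tested genes in AM LHX2, 8.55% in AM ZNF503, 11.7% in AM ZNF711, 5.12% in VM LHX2, 4.32% in VM ZNF503 and 10.1% in VM ZNF711.

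**Figure D5:**
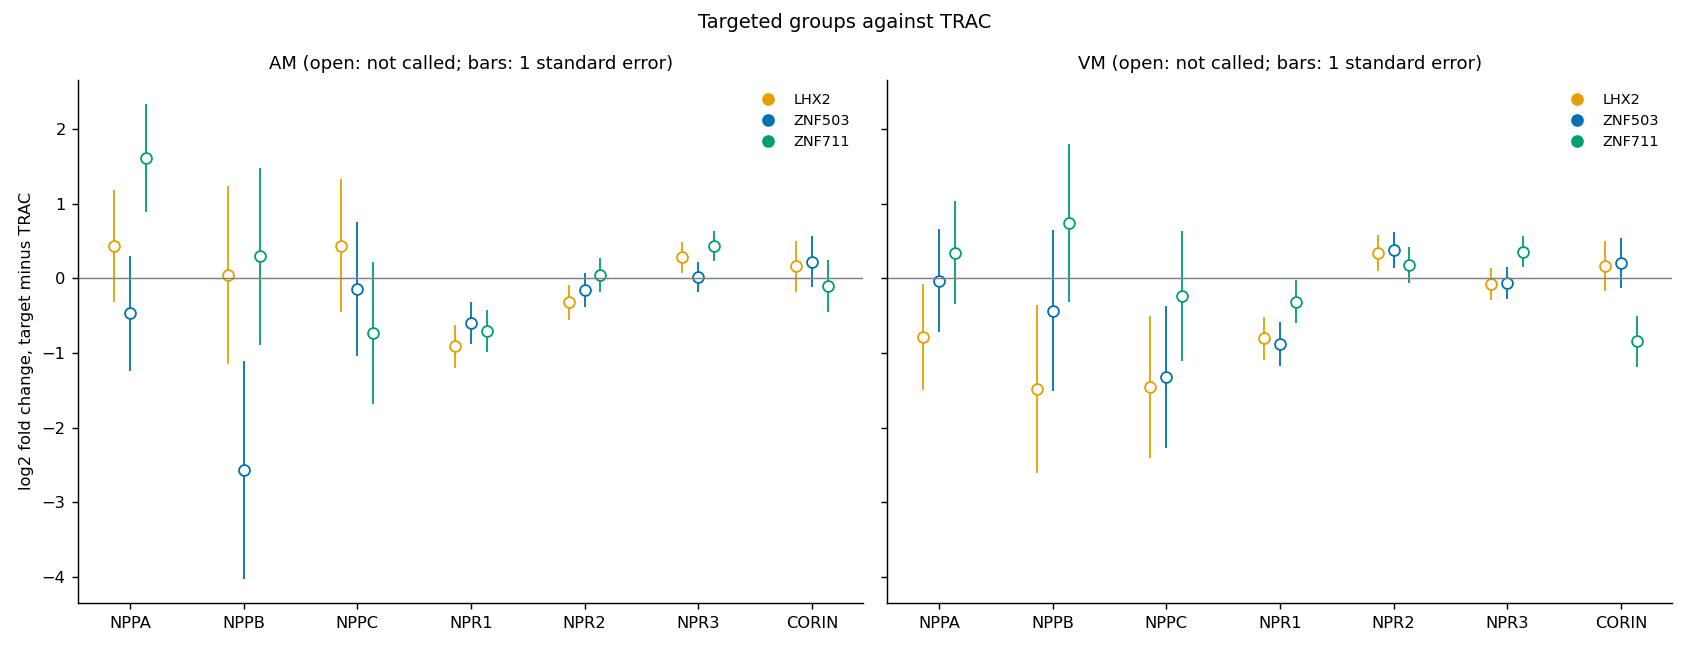
Log2 fold change against TRAC (vertical axis) of the 7 genes for each targeted group in AM and VM, with bars of 1 standard error and open points for no call. NPR1 lies below 0 in all 6 comparisons, from -0.91 to -0.31, and no point is filled.

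Other members did not overlap TRAC in single comparisons. NPR3 lay above all TRAC libraries in AM LHX2 (0.28, SE 0.20), AM ZNF711 (0.44, SE 0.20) and VM ZNF711 (0.36, SE 0.21). NPPA lay above them in AM ZNF711 (1.62, SE 0.73), and NPPB lay below them in AM ZNF503 (-2.57, SE 1.46, on 13 counts in all 3 libraries). Without replicate 3 of every group NPPA in AM ZNF711 was called (2.70, edgeR adjusted p 0.0187), in a comparison with 0.233% of tested genes called.

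In VM ZNF711, where the cardiomyocyte markers summed to 8163 to 12420 CPM against 9991 to 33290 in VM TRAC, CORIN was -0.84 (SE 0.34, edgeR adjusted p 0.441). CORIN was called there with a block in each condition (-0.79, edgeR adjusted p 0.000137, 8.38% of tested genes called), without replicate 3 of every group (-0.94, edgeR adjusted p 0.00933, 4.97% called) and without VM TRAC replicate 3 alone (-1.18, edgeR adjusted p 0.0414). NPPB in VM ZNF711 was 0.75 (SE 1.06, edgeR adjusted p 0.852), and without replicate 3 of every group it was 2.78 (edgeR adjusted p 0.0262). None of the 12 cardiomyocyte markers was called in VM ZNF711, where their median was -0.92, and the hepatic sum was 13650 to 33020 CPM against 4235 to 31970. The part of either in the CORIN and NPPB values was not tested.

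Whether the targets changed the difference between the conditions was tested as an interaction. No member was called, in comparisons with 0% (LHX2), 0% (ZNF503) and 0.00564% (ZNF711) of tested genes called and 660, 346 and 1135 genes at an unadjusted p under 0.05. For CORIN the ZNF711 interaction, AM minus VM in ZNF711 less the same in TRAC, was 0.74 (SE 0.48, edgeR adjusted p 0.922). With a block in each condition it was called (0.68, edgeR adjusted p 0.0356), where 2.54% of tested genes were. NPR3 had interactions of 0.35 with LHX2, 0.08 with ZNF503 and 0.08 with ZNF711 (SE 0.29 each).

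Of the enzymes and partners around the receptors, 6 of 15 tested genes were called higher in AM over the mean of 4 targets, 5 lower and 4 not (18 listed). Of all tested genes, 34.5% were called there. Their median was -0.12, beside -0.01 over all tested genes. PRKG2, a protein kinase driven by cyclic GMP, rose by 2.87 (SE 0.22, edgeR adjusted p 1.68e-10). PDE3A, a phosphodiesterase that cyclic GMP inhibits, rose by 1.59 (SE 0.17, edgeR adjusted p 2.18e-07). DPP4, a peptidase that trims B-type natriuretic peptide, fell by 2.12 (SE 0.62, edgeR adjusted p 0.0136).

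The transcription factors known to act on NPPA and NPPB split evenly over the mean of 4 targets. Of the 20, 8 were called higher in AM, 8 lower and 4 not, where 34.5% of all tested genes were called. The largest values were IRX4, a ventricular repressor, which fell by 5.98 (SE 0.33, edgeR adjusted p 3.92e-11), NR2F1, an atrial COUP-TF, which rose by 5.82 (SE 0.37, edgeR adjusted p 8.86e-10), and HEY2, a repressor in compact ventricular muscle, which fell by 3.57 (SE 0.21, edgeR adjusted p 4.37e-12). Among genes that often rise with NPPA and NPPB in strained heart muscle, 6 of 10 were called lower in AM and none higher. MYH7, the slow ventricular myosin, fell by 3.74, ANKRD1 fell by 1.92 and FHL2 fell by 1.35. The list's median was -0.81.

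The cell type lists were read over the mean of 4 targets, where 34.5% of all tested genes were called. Cardiomyocyte markers had 7 of 12 called lower in AM and none higher, led by LDB3 (-1.22), PLN (-1.19) and TNNC1 (-1.15). By target 3 of them were called lower in TRAC (11.3% of all tested genes called), 5 in LHX2 (8.56%) and 6 in ZNF503 (8.86%), with 0 higher. In ZNF711 (13.2%) it was the reverse, with 2 called higher, 0 lower and a median of 0.30. Hepatic endoderm markers had 8 of 10 lower and none higher, led by AHSG (-8.19), TF (-6.76) and ALB (-5.67), with AHSG at 0 counts in 3 libraries and ALB at 0 in 1. Epicardial markers had 2 of 6 tested higher and 1 lower, and neural markers 3 of 6 higher and none lower, small counts beside the 34.5% of all tested genes. No gene of any list was called in a comparison with TRAC. What the hepatic, epicardial and neural lists contributed to the member values was not tested.

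Genes most like each member were ranked by the lower of 2 Pearson correlations of log2 CPM, over the 12 AM and over the 12 VM libraries, among 11420 genes. These share depth, target and replicate number, and they are given as a description. GSTA1, FOSL2 and ACKR3 were most like NPPA, with 0.95, 0.92 and 0.89 in both conditions. SPATS2L, CDH1 and IL6R were most like NPR3, with 0.91, 0.89 and 0.89 in AM and 0.89, 0.89 and 0.88 in VM. ABCG1, ATP7A and LINC00938 were most like CORIN, with 0.78, 0.76 and 0.73 in AM and 0.84, 0.88 and 0.75 in VM. The endothelial genes PLVAP and CDH5 and the guidance receptor ROBO1 were most like NPR1, with 0.69, 0.61 and 0.63 in AM and 0.65, 0.63 and 0.63 in VM. METTL3, NFATC4 and CDK5 were most like NPR2, with 0.80, 0.71 and 0.65 in AM and 0.75, 0.70 and 0.67 in VM. With relative log expression scaling, IL6R ranked 4 for NPR3, CDH5 ranked 5 for NPR1 and CDK5 ranked 4 for NPR2. NPPB and NPPC were not ranked because they averaged under 10 CPM.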

How the data were processed

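The authors deposited raw gene counts, 1 column per library, aligned with STAR to GRCh38 per the submitters' processing notes. The counting program, strandedness and annotation release are not given in the sources used here. The labels name polyA RNA in one place and RiboErase depletion in another. All 24 columns matched a library (0 unmatched). Symbols were found for 62686 identifiers, which hold 99.99% of counts.

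Counts were tested with edgeR 4.0.16 (quasi-likelihood, robust, TMM scaling, filterByExpr, 8 group means, 16 residual degrees of freedom) in R 4.3.3, for 14 comparisons, with Benjamini-Hochberg adjustment over 17724 genes in each. The biological coefficient of variation was 25%. The code was tested on simulated data. Log2 CPM used a prior count of 2.

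Replicate numbers come from the titles. Over 11428 genes, deviations of same-numbered libraries from their group means correlated at 0.12 to 0.79 in all 30 pairs, so the numbers were taken to pair the samples. No 2 libraries within a group agreed to within sampling noise (lowest chi-square over its degrees of freedom 4.33).

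The members and lists were chosen with earlier results of these data known. Named were all 7 members, the 3 largest called genes of each pathway, regulator, wall stress, cardiomyocyte and hepatic list, and the 3 genes most like each member averaging 10 CPM; the remaining cell type lists (endothelial, fibroblast, smooth muscle, epicardial, neural) are given as counts. Of the listed symbols, 1 was not found. The list of genes beside NPPA and NPPB is not reported here. Alternatives were DESeq2 1.42.0, relative log expression or library size scaling, no filter, a 1 CPM minimum in 3 libraries, only the groups compared, 2 replicate blocks, and leaving out each library.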

Additional observations from a re-analysis of the deposited data

How the results depend on the processing

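NPR3 was called in AM minus VM with each target and over the mean under every alternative run, at 0.77 to 1.58 on the log2 scale. Without the filter on low counts, members called in AM minus VM were 5 (TRAC, 5.87% of tested genes called), 2 (LHX2, 4.92%), 4 (ZNF503, 4.87%) and 2 (ZNF711, 6.57%). With only the groups compared they were 1 (TRAC, 6.44%), 3 (ZNF503, 7.71%) and 2 (ZNF711, 19.8%). DESeq2 called 2 in ZNF503 (10.8%). Against TRAC, 1 member each was called without the filter in AM ZNF503, AM ZNF711, VM LHX2 and VM ZNF711, where 38838 genes were tested and up to 1.27% called. With the replicate block 3 members were called in ZNF503 (14.9% of tested genes) and 3 in ZNF711 (23.4%). At replicate 1, read through a replicate block in each condition, members called were 2 in LHX2 (12.2% of tested genes), 2 in ZNF503 (12.5%) and 2 over the mean (21.8%). That fit also called 1 in VM ZNF711 (8.38%) and 1 in the ZNF711 interaction (2.54%). The block changed no other count by over 1.5 times. Without replicate 3 of every group 2 were called in LHX2 (7.47% of tested genes), 2 in ZNF503 (7.99%), 1 in AM ZNF711 (0.233%) and 2 in VM ZNF711 (4.97%). With 1 library left out, 1 to 2 were called in TRAC and 0 to 1 in VM ZNF711. A group with 2 libraries left was assumed to vary like the others. The causes were not tested.

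Signs turned only in values that the main fit did not call. Among them, NPPB was called without the filter in AM minus VM in TRAC (-1.798, edgeR adjusted p 0.000116). Without the filter NPPB was also called in VM LHX2 minus VM TRAC (-1.507, edgeR adjusted p 0.0241). In AM minus VM, NPPA in ZNF711 was 0.014 with the replicate block and 0.188 without replicate 3 of every group. With a replicate block in each condition, NPPC in TRAC was 0.507 and NPR1 in LHX2 -0.006, both fitted at replicate 1. NPPB in VM LHX2 minus VM TRAC was 0.603 without replicate 3 of every group. With 1 library left out, AM minus VM in LHX2 ran from -2.108 to 0.345 for NPPA, -2.307 to 0.249 for NPPB, -0.033 to 0.295 for NPR1 and -0.094 to 0.512 for NPR2. In TRAC it ran from -3.296 to 0.809 for NPPB and -0.997 to 0.084 for NPPC, in ZNF503 from -0.079 to 1.474 for NPPC, and in ZNF711 from -0.336 to 0.100 for NPPA, -0.302 to 0.158 for NPR1 and -0.266 to 0.102 for CORIN. NPPC over the mean ran from -0.036 to 0.424, and NPPB in VM LHX2 minus VM TRAC from -1.996 to 1.095.

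Relative to cardiomyocyte markers, NPR1 was not called with the median of the list (0.462), with a replicate block on the signs of the 12 same-numbered differences (0.730), or without replicate 1 (0.705) or 2 (0.409) of every group. NPPB was called with that block (-1.315), and CORIN was 0.014 without replicate 3 of every group. With 0 to 16 counts a library, depth limits NPPC most.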
